A study of Mus musculus with 2 samples.

Results

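The genes of the sarcomere, the repeating contractile unit of striated muscle, were followed in limb muscle tissue of mouse embryos at 2 ages. The set holds 41 genes, chosen by symbol, and all 41 were found among the 32285 genes of each count matrix. They code for the thin filament and its regulators, the thick filament, the giant scaffold proteins, the Z-disc, the M-band, the desmin filament and the proteins that assist assembly. The members are a broad but not complete list of sarcomere genes. The rule names them by symbol and not by a measured value, but they were chosen with earlier results of these data known.

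In a sarcomere, myosin heads of the thick filament pull on actin of the thin filament. Calcium starts the pull by binding troponin C, which moves tropomyosin along actin, and troponin I and troponin T hold troponin C in place. Most of these proteins come in developmental, slow, fast and cardiac forms from separate genes, and embryonic limb muscle is known to use developmental, slow and cardiac forms before the adult fibre types settle. Muscle precursors carry the transcription factor Pax7, and cells that leave the cycle and differentiate switch on myogenin (Myog).

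The samples were wild-type C57Bl/6 embryos at E12.5 and E15.5, days of embryonic development, with forelimb and hindlimb tissue in a single library per age. Tissue was dissociated with trypsin, and libraries were made with the 10x Genomics 3′ droplet method. The labels do not give the number or sex of the embryos. The method takes single cells, so muscle fibres, which have many nuclei, were sampled only as far as they passed dissociation and the droplets.

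With 1 library per age there was no replicate and no test between ages or classes. Intervals in parentheses are 95% intervals of the UMI counts and cover counting error only. A UMI marks an RNA molecule caught by priming on its poly(A) tail, so levels are given as counts per 1000000 UMIs of the class (CPM), without division by length. A ratio is called past the fold where it is at least 2-fold, which is 1 on the log2 scale, with at least 20 UMIs in both sides together.

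The E12.5 library held 12941 barcodes and 34907675 UMIs, and the E15.5 library 5780 barcodes and 46966083 UMIs. After filters, 11001 and 3916 barcodes stayed, with medians of 2324 and 9325.5 UMIs. The libraries shared 17 barcode sequences. Muscle barcodes were taken by a panel of 12 myogenic genes that holds no sarcomere gene, and were split by Myog and Pax7 UMIs. Myog-positive barcodes without Pax7 numbered 210 in the younger and 113 in the older library, Pax7-positive barcodes without Myog 54 and 71, and barcodes with both 17 and 40. Non-muscle barcodes numbered 10122 and 3280. The Myog-positive classes had medians of 3844.5 and 13295 UMIs, and the Pax7-positive classes 4396.5 and 14255 UMIs. Classes were set at full depth, so 0 UMIs of Myog or Pax7 is a weaker exclusion in the younger library. Of the non-muscle barcodes, 10121 in the younger and 3126 in the older library had no panel UMI. The part of depth in the comparisons of ages was not tested.

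Markers of other cell types were not absent in the Myog-positive barcodes. The 7 endothelial markers summed to 4.33 CPM in the younger and 51.2 CPM in the older class, with Cdh5, Kdr, Emcn, Esam and Cldn5 at 0 in the first and Esam at 0 in the second. The 7 mural markers summed to 41.1 and 27.3 CPM, the 6 Schwann markers to 149 and 104 CPM, and the 8 chondrocyte markers to 247 and 32.6 CPM. The 7 immune markers summed to 27.1 and 4.65 CPM, and the 7 connective tissue markers to 428 and 545 CPM. The 5 cardiac markers summed to 2.17 and 5.23 CPM, with Nkx2-5 and Myl7 at 0 in both. In non-muscle barcodes the Schwann markers summed to 35.4 and 109 CPM, and the cardiac markers to 2.48 and 4.09 CPM. The endothelial, mural, chondrocyte, immune and connective tissue sums were higher in non-muscle than in Myog-positive barcodes at both ages. In the Pax7-positive classes the Schwann markers summed to 118 and 14.6 CPM, the chondrocyte markers to 232 and 24.6 CPM, the connective tissue markers to 460.3 and 760.2 CPM and the mural markers to 146 and 122 CPM. The 2 proliferation markers, Mki67 and Top2a, summed to 884.5 and 788 CPM in Myog-positive barcodes, so this class was not free of them. They summed to 1951 and 1686 CPM in Pax7-positive barcodes, and to 1391 and 823 CPM in non-muscle barcodes. The part of all these markers in the results was not tested.

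Sarcomere genes filled 4.84% of all UMIs of the Myog-positive barcodes at E12.5 against 3.22% at E15.5. The summed level was 48392 CPM (47945 to 48843) in the younger and 32184 CPM (31917 to 32454) in the older class, a log2 ratio of -0.59 (-0.61 to -0.57). The Pax7-positive barcodes stood at 4233 CPM (3984 to 4494) and 2055 CPM (1971 to 2141), with a log2 ratio of -1.04 (-1.15 to -0.94). Barcodes with both transcripts lay between, at 7362 and 6119.7 CPM, and non-muscle barcodes were at 973 and 735 CPM. The order of these classes was the same at both ages. It leaves out 21 and 5 muscle barcodes with neither transcript, at 7741 and 2486 CPM. It also leaves out 577 and 407 barcodes that met neither the muscle nor the non-muscle rule, at 2490 and 1550 CPM. For comparison, the median gene had a log2 ratio of -0.37 in Myog-positive and -0.24 in Pax7-positive barcodes.

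Titin carried much of the difference in the sum. Without Ttn, the log2 ratio of the summed level was -0.24 in Myog-positive barcodes and -0.73 in Pax7-positive barcodes.

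**Figure D1:**
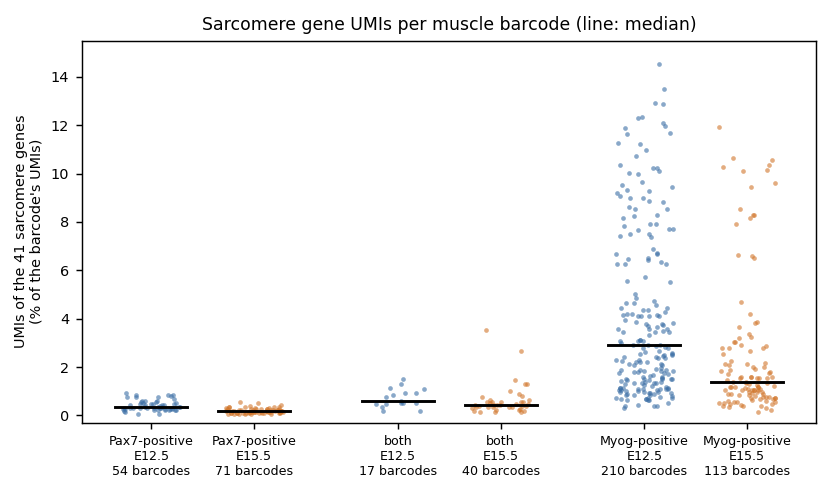
Share of each muscle barcode's UMIs that came from the 41 sarcomere genes, in percent, for Pax7-positive barcodes, barcodes with both Myog and Pax7, and Myog-positive barcodes at each age (points are barcodes, lines are medians). The Myog-positive barcodes spread from under 1% up to 14.5% at E12.5, and up to 11.9% at E15.5, while no Pax7-positive barcode reached 1%.

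Single Myog-positive barcodes differed widely in their load of sarcomere UMIs. The median barcode had 2.91% in the younger library, with quartiles of 1.44% and 6.49%. It had 1.39% in the older library, with quartiles of 0.833% and 2.85%. A share of at least 5% was reached by 63 of the 210 barcodes at E12.5 but by 17 of 113 at E15.5. The highest Pax7-positive barcode had 0.912% and 0.542%, below the lower quartile of the Myog-positive barcodes of its own library. The sums rest on a minority of barcodes: the 21 highest at E12.5 held 45.8% of the class's sarcomere UMIs, and the 11 highest at E15.5 held 59.5%.

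**Figure D2:**
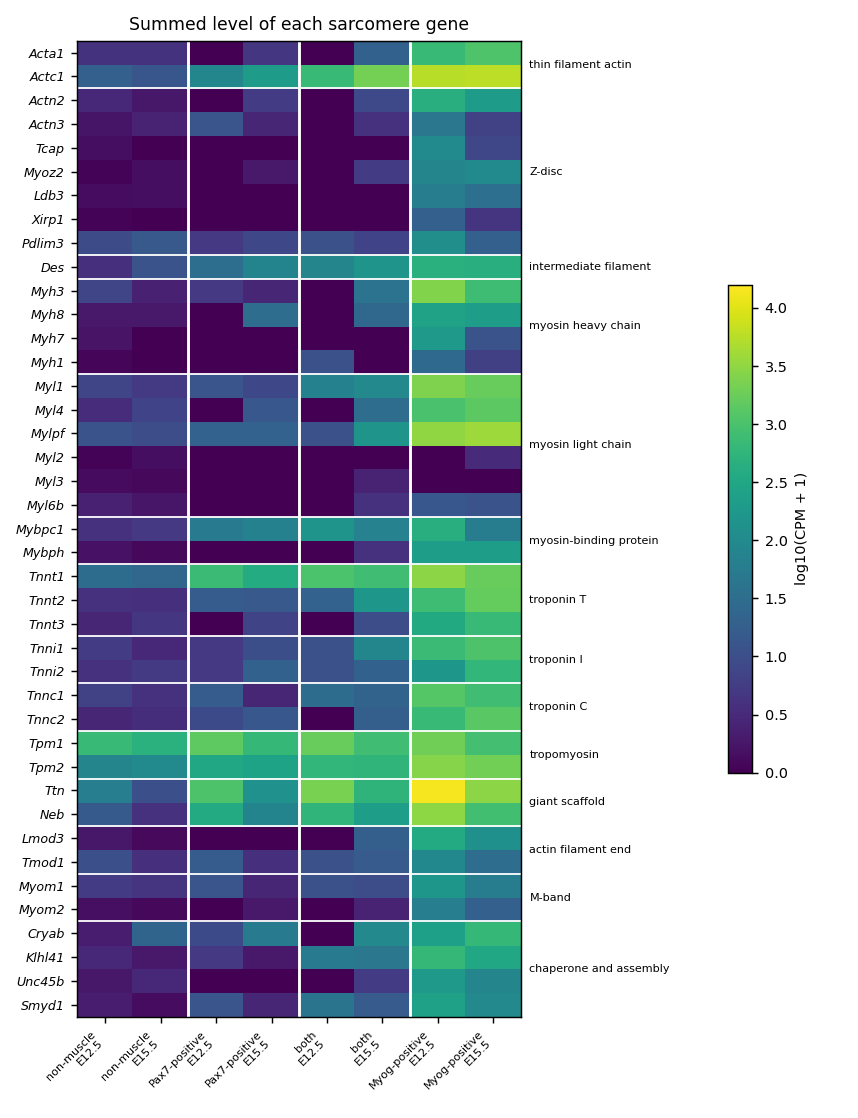
Summed level of each of the 41 sarcomere genes, as log10(CPM + 1), in non-muscle, Pax7-positive, double-positive and Myog-positive barcodes at both ages, with genes grouped by role. The Myog-positive columns are the brightest for nearly all genes, and Tpm1, Tpm2, Ttn, Neb and Tnnt1 are also seen in the Pax7-positive columns.

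Most members were higher in Myog-positive than in Pax7-positive barcodes. At E12.5, 36 of 37 members with enough UMIs were past the fold, beside 13.2% of all 6761 genes. At E15.5, 31 of 33 were past it, beside 9.82% of 8497 genes. These counts are a description only, since most members met the UMI minimum only through the Myog-positive class, where they are high. Of the members with at least 20 UMIs in the Pax7-positive class itself, 5 of 6 were past the fold at E12.5, then 10 of 12 at E15.5. Among them Actc1 was 6.08 (5.46 to 6.77) and 4.89 (4.70 to 5.08) higher on the log2 scale, and Ttn 3.73 (3.56 to 3.91) and 4.49 (4.25 to 4.74). Myh3, the embryonic myosin heavy chain, had 2318 and 1373 UMIs in the Myog-positive classes, against 1 and 2 in the Pax7-positive classes.

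The members under the fold were a tropomyosin and a myosin-binding protein. Tpm1 was 0.43 (0.27 to 0.60) on the log2 scale above the Pax7-positive level at E12.5, against 0.49 (0.36 to 0.63) at E15.5. Mybpc1, slow myosin-binding protein C, was 3.04 (2.25 to 3.97) higher in Myog-positive barcodes at E12.5. In the older library it stood at 56.4 CPM (45.7 to 68.8) in Myog-positive and 70.2 CPM (55.4 to 87.7) in Pax7-positive barcodes, and those intervals overlap.

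Shares of barcodes with a UMI were compared after thinning each barcode to 2000 UMIs. Actc1 was then detected in 92.9% of Myog-positive barcodes in the younger and 97.2% in the older library (95.2% and 100% unthinned). It was detected in 15.1% and 26.8% of thinned Pax7-positive barcodes. Among barcodes with endothelial markers, which should lack it, the thinned share was 1.77% and 4.69%, with unthinned medians of 3913 and 12693 UMIs.

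Other members were found in only some of the Myog-positive barcodes. Tnnt1 was found in 96.9% and 93.5% of them after thinning (97.1% and 99.1% unthinned). Acta1 was found in 32.1% and 25% (37.6% and 36.3% unthinned), and Myh3 in 56.6% and 24.1% (61.0% and 46.0% unthinned). The thinned endothelial shares were 2.65% and 0.781% for Tnnt1. For Acta1 and Myh3 they were 0.885% each in the younger library and 0 of 128 barcodes each in the older, an exact upper limit of 2.84% for the share of such barcodes with a UMI.

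The comparison of ages within the Myog-positive barcodes gave more lower than higher members. Of 39 members with at least 20 UMIs, 3 were past the fold upward (5.61% of all 8526 genes) and 18 were past it downward (21.7% of all genes), with a median log2 ratio of -0.85 against -0.37 for all genes. The 3 higher members were the fast troponin Tnni2, the chaperone Cryab and the cardiac troponin Tnnt2. Of the lower members, Myh7, Tcap, Actn3 and Myh1 met the UMI minimum only through the younger class, where they are high. Xirp1 met it only with both classes together. The count of lower members is therefore a description only. Both genes of each of the giant scaffold, M-band and filament end groups were past the fold downward, and none of the actins, myosin light chains or troponin C genes was past it. Relative to the median gene, the split was 6 higher and 15 lower, and by a Myog UMI alone, with no panel, 1 higher and 23 lower.

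The age ratio moved with transcript length across all genes. In Myog-positive barcodes the median log2 ratio was 0.58 for 432 genes with a longest transcript of up to 1000 bases and -1.20 for 29 genes over 16000 bases. Spearman's rho between length and ratio was -0.51 across 8525 genes in Myog-positive and -0.25 across 16659 genes in non-muscle barcodes, and all these points share the same 2 libraries. Of the 21 members past the fold, 16 were still past it when set against the median of the 200 genes nearest in length. The members that fell under it were Actn2, Myh3, Neb, Myom1 and Unc45b, at -0.89 to -0.74. The part of length in the results was not tested.

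**Figure D3:**
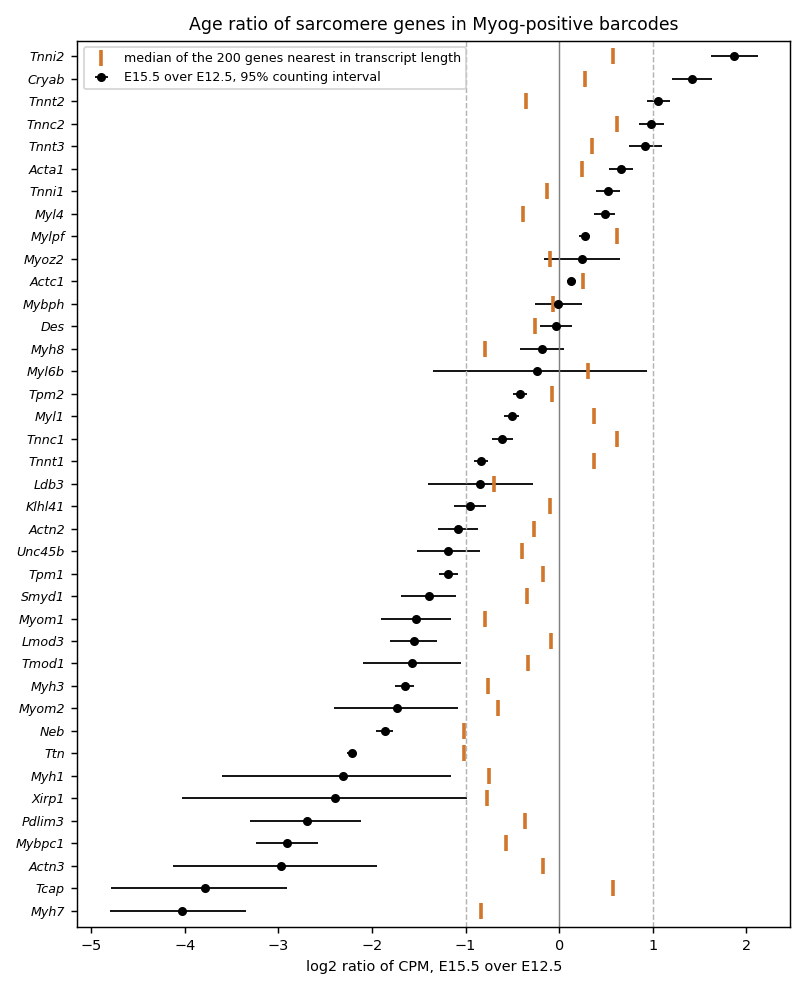
Log2 ratio of CPM, E15.5 over E12.5, in Myog-positive barcodes for the 39 sarcomere genes with at least 20 UMIs (black points with 95% counting intervals), beside the median ratio of the 200 genes nearest in transcript length (orange marks). Dashed lines mark the fold, which Tnni2, Cryab and Tnnt2 pass to the right and 18 genes from Actn2 to Myh7 pass to the left.

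The sarcomeric actins were led by the cardiac form at both ages. Actc1 (chromosome 2, 114047282 to 114053548 in GRCm38), cardiac alpha-actin, had 5577 CPM (5426 to 5731) in the younger and 6102 CPM (5985 to 6219) in the older Myog-positive class. Acta1 (chromosome 8, 123891769 to 123894751), skeletal alpha-actin, had 707 CPM (654 to 763) and 1115 CPM (1066 to 1166), with a log2 ratio of 0.66 (0.53 to 0.79). Actc1 thus held 88.8% (87.9 to 89.5) of alpha-actin UMIs at E12.5, against 84.5% (83.9 to 85.2) at E15.5. In male barcodes alone the difference of ages in this share was opposite, 4.70 percentage points (2.89 to 6.57).

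Within barcodes the balance was one-sided. Among barcodes with at least 5 alpha-actin UMIs, 178 in the younger and 110 in the older library, every one had at least 50% Actc1, and the lowest share was 60.9% and 54.9%. The median Actc1 share was 100% at both ages, with lower quartiles of 89.5% and 96.7%, so the typical barcode did not show the lower pooled share. Acta1 UMIs were concentrated, with 81.8% of those at E15.5 in the 11 highest barcodes. The actin genes are close paralogs, so reads shared between them could be split by the counting.

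The 200 bases before the RefSeq start sites of both alpha-actins are shown because both hold a CArG box, the element bound by serum response factor, and the levels of these paralogs differed by several fold. They come from the RefSeq promoter table of GRCm38.p6, 5′ to 3′ on the gene's own strand. The Actc1 window lies inside the GENCODE gene, which starts further upstream. Capitals mark the E-box pattern CANNTG, the MCAT element CATTCC on either strand, the TATA box TATAAA, MEF2 boxes and CArG boxes.
Actc1 (chr2:114052876-114053075, minus strand): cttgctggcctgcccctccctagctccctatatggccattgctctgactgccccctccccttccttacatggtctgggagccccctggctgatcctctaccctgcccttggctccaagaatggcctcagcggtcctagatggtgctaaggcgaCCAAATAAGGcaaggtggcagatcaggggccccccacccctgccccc
Acta1 (chr8:123894776-123894975, minus strand): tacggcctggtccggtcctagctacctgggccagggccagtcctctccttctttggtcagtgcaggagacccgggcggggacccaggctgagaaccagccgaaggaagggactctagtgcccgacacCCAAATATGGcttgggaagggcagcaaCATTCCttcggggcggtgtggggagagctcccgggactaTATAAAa

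The myosin heavy chains, the motor of the thick filament, were lower in sum in the older class. Their sum was 2975 CPM (2865 to 3088) in the younger and 1043 CPM (995 to 1092) in the older class. Embryonic Myh3 (chromosome 11, 67078300 to 67102291) made up most of it, with 2509.6 CPM (2408 to 2614) and 798 CPM (757 to 842), so the log2 ratio was -1.65 (-1.75 to -1.55). Perinatal Myh8 (chromosome 11, 67277124 to 67308634) had 259 CPM (227 to 294) and 228 CPM (206 to 252), so the log2 ratio was -0.18 (-0.42 to 0.06). The 200 genes nearest in length to Myh3 and Myh8 had medians of -0.76 and -0.79.

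The slow and fast heavy chains were rarer. Slow Myh7 (chromosome 14, 54970684 to 54994626) had 167 UMIs in 33 barcodes at E12.5, against 19 UMIs in 3 barcodes at E15.5, for a log2 ratio of -4.03 (-4.80 to -3.34). Fast Myh1, the IIx form, had 24 and 9 UMIs, and no barcode held more than 3. Of the 19 Myh7 UMIs at E15.5, 13 lay in 1 barcode.

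The heavy chain balance moved from Myh3 towards Myh8. Myh3 held 84.3% (82.9 to 85.7) of the UMIs of the 4 heavy chains in the younger and 76.6% (74.5 to 78.5) in the older class, and Myh8 8.70% (7.67 to 9.81) and 21.9% (20 to 23.9). Myh7 held 6.08% and 1.06%. In male barcodes alone the Myh3 share was instead higher at E15.5, by 7.11 percentage points (2.92 to 10.9). Among barcodes with at least 5 heavy chain UMIs, the median Myh3 share was 90.5% over 84 barcodes and 80% over 35 barcodes. At E12.5 all 84 had at least 50% Myh3, while at E15.5 4 of 35 had at least 50% Myh8.

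The heavy chains overlapped within barcodes. All 33 barcodes with Myh7 at E12.5 also had Myh3, and 28 had Myh8. Of barcodes with Myh8, 45 of 48 in the younger and 36 of 50 in the older library had Myh3, against 61.0% and 46.0% of all Myog-positive barcodes. The genes Myh3, Myh1 and Myh8 lie in 1 cluster on chromosome 11 and resemble each other, so reads shared between them could be split by the counting.

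The starts of Myh3 and Myh8 are shown since their balance differed between the ages. Myh3 holds TATAAA close to its start and Myh8 holds a MEF2 box, the element bound by MEF2 factors. The source and the capitals are those given for the actins.
Myh3 (chr11:67078100-67078299, plus strand): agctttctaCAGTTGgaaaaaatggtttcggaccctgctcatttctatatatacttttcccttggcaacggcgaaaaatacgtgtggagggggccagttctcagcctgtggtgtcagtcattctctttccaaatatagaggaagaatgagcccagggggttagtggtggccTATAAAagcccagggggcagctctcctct
Myh8 (chr11:67276924-67277123, plus strand): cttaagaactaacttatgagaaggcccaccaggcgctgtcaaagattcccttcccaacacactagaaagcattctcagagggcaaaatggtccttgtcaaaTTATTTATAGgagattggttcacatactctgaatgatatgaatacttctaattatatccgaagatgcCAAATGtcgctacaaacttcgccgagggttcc

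Myosin light chains, which sit on the neck of the myosin head, had similar sums, with 6613 CPM (6448 to 6781) in the younger and 6958 CPM (6833 to 7083) in the older class. The fast regulatory chain Mylpf had 3218 CPM (3103 to 3336) and 3884 CPM (3791 to 3978). Its slow and ventricular counterpart Myl2 had 0 UMIs in the younger and 4 in the older class, so Mylpf held 100% and 99.9% of the pair. Myl3, the slow and ventricular essential chain, had 0 UMIs at both ages, with upper bounds of 3.99 and 2.15 CPM.

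The balance of essential chains differed between the ages. Myl1, the fast essential chain, had 2402 CPM (2304 to 2504) and 1689 CPM (1628 to 1751), for a log2 ratio of -0.51. Myl4, the embryonic and atrial chain, had 979.8 CPM (917 to 1046) and 1372 CPM (1317 to 1428), for a log2 ratio of 0.49, which turned to -0.14 in male barcodes and -0.06 with Myog UMIs and no panel. Myl4 therefore held 28.9% (27.3 to 30.5) of essential chain UMIs in the younger and 44.7% (43.3 to 46.0) in the older class. Per barcode its median share was 25.9% and 33.3%, and 1 barcode held 749 of its 2359 UMIs at E15.5. Myl6b, another essential chain, had 12 and 19 UMIs.

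The 2 myosin-binding proteins parted. Mybpc1 had 422 CPM (381 to 466) in the younger and 56.4 CPM (45.7 to 68.8) in the older class, for a log2 ratio of -2.90 (-3.24 to -2.58). Mybph, myosin-binding protein H, stood at 219 CPM (189.6 to 251) and 217 CPM (196 to 240.1). Mybpc1 held 65.9% (61.9 to 69.7) of the pair at E12.5, against 20.6% (17.1 to 24.6) at E15.5. After thinning it was detected in 40.3% of barcodes in the younger and 9.26% in the older library (52.4% and 45.1% unthinned). At E15.5 no barcode had more than 14 of its UMIs, while Mybph had 91.4% of its UMIs in the 11 highest barcodes.

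All 3 troponin subunits moved away from their slow form. In troponin T, the tropomyosin-binding subunit, slow Tnnt1 (chromosome 7, 4504570 to 4516382) had 2977 CPM (2867 to 3091) in the younger and 1668 CPM (1608 to 1731) in the older class. Cardiac Tnnt2 (chromosome 1, 135836354 to 135852260) had 784 CPM (728 to 843) and 1633 CPM (1573 to 1694), for a log2 ratio of 1.06 (0.94 to 1.18). Fast Tnnt3 had 360.5 CPM (323 to 401) and 681 CPM (642 to 721), for a log2 ratio of 0.92 (0.74 to 1.10).

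The slow and the cardiac troponin T were nearly equal at E15.5. Tnnt1 held 72.2% (70.8 to 73.7) of troponin T UMIs in the younger and 41.9% (40.7 to 43.1) in the older class, while Tnnt2 held 19.0% (17.8 to 20.3) and then 41% (39.8 to 42.2). Across 183 barcodes with at least 5 troponin T UMIs the median Tnnt1 share was 77.8% at E12.5, and across 107 barcodes it was 51.9% at E15.5.

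Troponin I, the inhibitory subunit, had 903 CPM (843 to 966) in sum in the younger and 1665 CPM (1604 to 1727) in the older class. Slow Tnni1 (chromosome 1, 135779434 to 135810989) had 737 CPM (683 to 795) and 1059.6 CPM (1012 to 1109). Fast Tnni2 (chromosome 7, 142441808 to 142444410) had 166 CPM (140.4 to 194) and 605 CPM (569 to 643), for a log2 ratio of 1.87 (1.62 to 2.12), the highest of the 39 members. The slow share of troponin I was 81.7% (78.9 to 84.2) at E12.5, against 63.6% (61.9 to 65.4) at E15.5. Per barcode the median slow share was 82.3% over 55 and 76.8% over 60 barcodes, and 74.5% of the Tnni2 UMIs at E15.5 came from the 11 highest barcodes.

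Troponin C, the calcium sensor, crossed from slow to fast. Slow and cardiac Tnnc1 had 1231 CPM (1160.5 to 1305) and 808 CPM (766 to 851), and fast Tnnc2 had 671 CPM (619 to 726) and 1329 CPM (1275 to 1385). Tnnc1 held 64.7% (62.4 to 67.0) of the pair in the younger and 37.8% (36.2 to 39.4) in the older class. At least 50% Tnnc1 was seen in 57 of 64 barcodes with 5 or more UMIs of the pair at E12.5, but in 6 of 27 at E15.5.

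The starts of both troponin C genes are printed because this pair changed which gene led. Tnnc1 holds 2 E-boxes and an MCAT element, and Tnnc2 holds 2 E-boxes within the 200 bases, in the same notation. The Tnnc2 window lies inside the GENCODE gene, which starts further upstream.
Tnnc1 (chr14:31208112-31208311, plus strand): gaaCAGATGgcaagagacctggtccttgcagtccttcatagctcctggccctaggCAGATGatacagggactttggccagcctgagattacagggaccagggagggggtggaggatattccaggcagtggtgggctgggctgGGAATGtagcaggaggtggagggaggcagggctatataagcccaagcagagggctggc
Tnnc2 (chr2:164779735-164779934, minus strand): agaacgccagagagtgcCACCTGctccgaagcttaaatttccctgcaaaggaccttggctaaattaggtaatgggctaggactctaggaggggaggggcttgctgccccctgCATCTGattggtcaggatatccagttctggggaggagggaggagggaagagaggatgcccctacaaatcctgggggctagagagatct

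**Figure D4:**
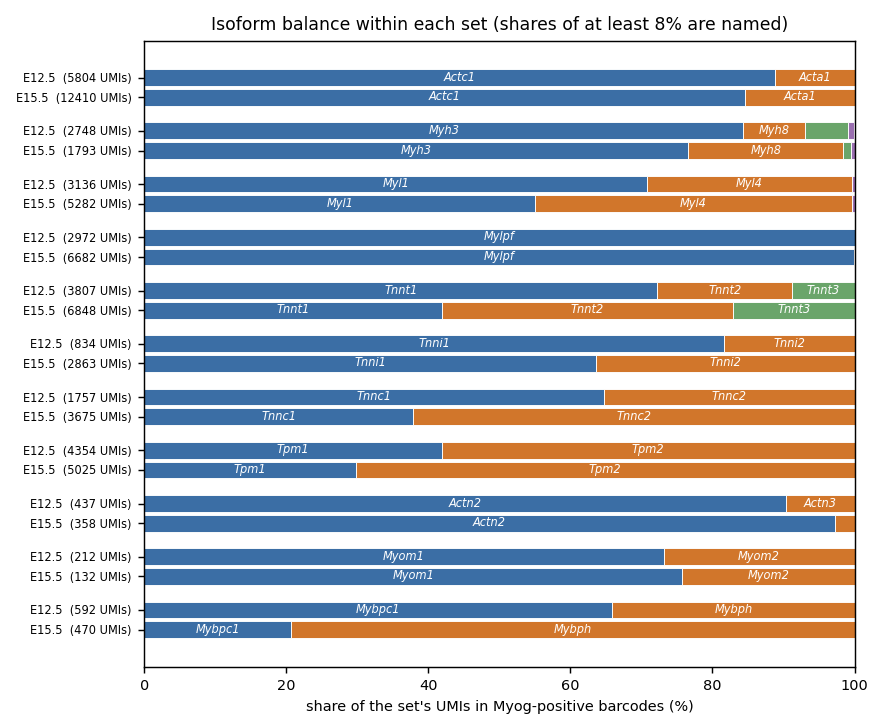
Share of each isoform set's UMIs in Myog-positive barcodes, in percent, with the upper bar of each pair for E12.5 and the lower for E15.5 and the set's UMIs at the left. The slow forms Tnnt1, Tnni1 and Tnnc1 take smaller parts of their bars at E15.5, and Actc1 and Mylpf fill most of theirs at both ages.

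Tropomyosin lies along actin and covers the myosin sites. Tpm1 (chromosome 9, 67022590 to 67049406) had 1974 CPM (1884 to 2066) in the younger and 869 CPM (825 to 914) in the older class, for a log2 ratio of -1.18 (-1.28 to -1.08). Tpm2 had 2740.2 CPM (2634 to 2849) and 2053 CPM (1986 to 2122), and held 58.1% (56.6 to 59.6) and 70.3% (69.0 to 71.5) of the pair. Tpm1 was in 96.7% and 94.7% of Myog-positive barcodes and Tpm2 in 97.1% and 99.1%. Tpm1 was spread the most evenly of all members at E12.5, with 29.9% of its UMIs in the 21 highest barcodes. Both genes also make smooth muscle and non-muscle forms, which the counts do not tell apart.

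The giant proteins gave the largest absolute difference. Titin (Ttn, chromosome 2, 76703980 to 76982547), the spring that runs from Z-disc to M-band, had 13895 CPM (13655 to 14137) in the younger and 2986 CPM (2905 to 3069) in the older class, for a log2 ratio of -2.22 (-2.27 to -2.17). It was the most abundant member at E12.5 and came after Actc1 and Mylpf at E15.5. Nebulin (Neb, chromosome 2, 52136647 to 52378474), which runs along the thin filament, had 3065 CPM (2953 to 3180) and 842 CPM (799 to 886), for a log2 ratio of -1.86 (-1.96 to -1.77). Their longest transcripts have 106824 and 22489 bases, and the 200 genes nearest in length had a median ratio of -1.02 for each. Whether priming inside such long transcripts added UMIs was not tested. Ttn was also lower in Pax7-positive barcodes, with a log2 ratio of -2.98. The ratio in non-muscle barcodes was -2.64, but Ttn stood there at 0.618% and 0.613% of its muscle level, which is not read as expression.

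Most Z-disc genes were lower in the older class, 5 of 7 past the fold, beside 21.7% of all genes. Among them, Tcap and Actn3 met the UMI minimum only through the younger class, and Xirp1 only with both classes together. Tcap, the titin cap, had 96.4 CPM (77.4 to 119) and 6.98 CPM (3.61 to 12.2), for a log2 ratio of -3.79 (-4.79 to -2.91). Its longest transcript has 948 bases, and genes nearest in length had a median of 0.57. Fast alpha-actinin Actn3 had 42 and 10 UMIs, and its sarcomeric relative Actn2 had 428 CPM (386 to 472) and 202 CPM (182 to 225). Relative to genes nearest in length, Actn2 stood at -0.81 and was under the fold. Pdlim3, a PDZ-LIM protein that binds alpha-actinin, had 120.2 CPM (98.9 to 145) and 18.6 CPM (12.7 to 26.3). Xirp1, an actin-binding repeat protein, had 17 and 6 UMIs.

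Myoz2 and Ldb3 were under the fold. Myoz2, a protein that binds alpha-actinin, had 81.2 CPM (63.9 to 102) and 96.0 CPM (81.9 to 112). Ldb3, another PDZ-LIM protein, had 59.5 CPM (44.9 to 77.5) and 33.1 CPM (25.1 to 43.0). Desmin (Des), the intermediate filament around the Z-discs, was alike at 455 CPM (412 to 500.4) and 444 CPM (413 to 477).

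The filament end and M-band genes were lower together. Lmod3, leiomodin, which starts actin filaments, had 368 CPM (330.0 to 409) in the younger and 126 CPM (109 to 144) in the older class. Tmod1, tropomodulin, the cap of their pointed end, had 89.9 CPM (71.6 to 111) and 30.2 CPM (22.6 to 39.7). The myomesins Myom1 and Myom2, which tie thick filaments at the M-band, had log2 ratios of -1.53 (-1.91 to -1.16) and -1.73 (-2.40 to -1.08), and Myom1 held 73.1% and 75.8% of the pair. Relative to genes nearest in length, Myom1 stood at -0.74, under the fold, and Myom2 at -1.07.

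The chaperones did not go one way. Cryab (chromosome 9, 50751325 to 50756636), alpha-B-crystallin, a small heat shock protein that binds desmin and actin, had 232 CPM (202 to 265) in the younger and 618 CPM (582 to 656) in the older class, for a log2 ratio of 1.42 (1.20 to 1.63). It was found in 24.5% of thinned Myog-positive barcodes at E12.5, against 56.5% at E15.5 (34.8% and 85.8% unthinned). The myosin chaperones Unc45b and Smyd1 had log2 ratios of -1.18 (-1.52 to -0.85) and -1.40 (-1.70 to -1.10). Klhl41, which stabilises nebulin, had 629 CPM (579 to 682) and 325 CPM (299 to 353).

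The Pax7-positive barcodes held a small part of the set. At E12.5, 23 of 41 members had a UMI, and Tpm1, Ttn and Tnnt1 made up 76.3% of their sarcomere UMIs. At E15.5, 30 members had a UMI, and Tpm1, Tnnt1 and Tpm2 made up 62.0%.

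Against non-muscle barcodes, 16 of 31 members were past the fold upward in the Pax7-positive class at E12.5 (7.61% of all genes with enough UMIs), and 16 of 29 at E15.5 (5.91%). Tnnt1 had 720.0 CPM (619 to 832) in the younger and 384 CPM (348 to 422) in the older Pax7-positive class, against 29.0 and 23.4 CPM in non-muscle barcodes. After thinning it was found in 73.6% and 45.1% of Pax7-positive barcodes (90.7% and 83.1% unthinned). Nebulin had 362 CPM (292 to 444) and 78.4 CPM (62.7 to 96.8), log2 ratios of 4.67 and 4.72 over non-muscle barcodes. Mybpc1 had 51.1 CPM (27.2 to 87.5) and 70.2 CPM (55.4 to 87.7), log2 ratios of 4.09 and 4.15.

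Across ages the Pax7-positive class had 12 members with enough UMIs, of which 5 were higher (8.4% of all 6736 genes) and 3 lower (15.9%). The lower were Ttn, from 1046 CPM (924 to 1180.1) to 133 CPM (112 to 156), Neb and Tpm1, with log2 ratios of -2.98, -2.21 and -1.25. Actc1 was at 82.6 CPM (51.1 to 126) and 206 CPM (180.0 to 235), for a log2 ratio of 1.32 (0.67 to 2.04), and Des at 31.5 and 78.4 CPM, for one of 1.32 (0.27 to 2.57). Cryab had 2 and 57 UMIs, and Tnni2 1 and 21 UMIs with an interval that includes 0. Myh8 had 0 and 34 UMIs, at least 1.39 higher on the log2 scale with 3 counts set for the empty side, and 16 of the 34 came from 1 barcode. Of the 5 higher members, Des, Cryab, Tnni2 and Myh8 met the UMI minimum only through the older class, where they are high.

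Barcodes with both Myog and Pax7 were compared with the Pax7-positive class. At E12.5, 3 of 7 members were past the fold (4.1% of 3216 genes): Actc1 by 3.07 (2.34 to 3.85) on the log2 scale, Mybpc1 by 1.56 (0.38 to 2.75) and Ttn by 1.13 (0.87 to 1.39). At E15.5, 12 of 19 were past it (3.61% of 7276 genes), among them Klhl41 at 5.66, with 1 UMI in the Pax7-positive class. Of the members with at least 20 UMIs in the Pax7-positive class itself, 2 of 6 were past the fold in the younger and 6 of 12 in the older library. Across ages, 5 of 16 members were higher in this class (9.76% of all genes) and 4 lower (16.5%). Of the higher, Mylpf, Tnnt2, Tnni1 and Cryab met the UMI minimum only through the older library, where they are high. That count is a description only. The other was Actc1, with 692 CPM (538 to 876) and 2061 CPM (1954 to 2172) in this class, in 11 of 17 and 39 of 40 barcodes.

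In non-muscle barcodes most members were seen at a small share of their muscle level. At E12.5 the non-muscle CPM was under 1% of the CPM of all muscle barcodes for 28 of 37 members with at least 20 muscle UMIs, with a median of 0.674%. At E15.5 it was under 1% for 19 of 34, with a median of 0.862%. Actc1 stood at 0.468% and 0.362%, Ttn at 0.618% and 0.613% and Myh3 at 0.380% and 0.367%. Droplets also catch free RNA, so levels this low are not read as expression.

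Above 3% lay 5 members in the younger and 10 in the older library. Tpm1 had 679.7 CPM in non-muscle barcodes at E12.5 (37.2% of muscle), and 481 CPM at E15.5 (62.0%). Tpm2 had 79.4 CPM (3.98%) and 97.5 CPM (8.19%). Tmod1 was at 14.8% and 14.5% of its muscle level, and Myom1 at 3.71% and 10.8%. Pdlim3 reached 9.85% and, in the older library, 109%, where 13.6 CPM in non-muscle barcodes faced 12.4 CPM in muscle barcodes.

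Compared with non-muscle barcodes, all 38 members with enough UMIs were past the fold in Myog-positive barcodes at E12.5 (8.27% of all genes). At E15.5, 34 of 36 were (6.95%), while Pdlim3 at 0.45 (-0.11 to 0.97) and Tpm1 at 0.85 (0.77 to 0.93) were not. Of those with at least 20 UMIs in non-muscle barcodes, 30 of 30 and 27 of 29 were past it. Across ages within non-muscle barcodes, 6 of 33 members were higher (13.5% of 16666 genes) and 10 lower (20.3%), with a median of -0.31 against -0.28 for all genes. Among those past the fold, Actn3 met the UMI minimum only through the older class, and Lmod3 and Smyd1 only through the younger. Mybph met it only with both classes together. The highest was Cryab, with 1.08 CPM (27 UMIs) at E12.5, then 21.7 CPM (716 UMIs) at E15.5.

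Barcodes with markers of other cell types showed where these members were found. The marker rule was set after seeing the data, takes in a broad group for chondrocyte markers, and left a single barcode with mural markers at E12.5. At E15.5 connective tissue markers summed to 4459 CPM in the Schwann group, beside 3812 CPM of Schwann markers. They summed to 5063 CPM in the mural group, beside 2561 CPM of mural markers. In the endothelial and immune groups they summed to 223 and 177 CPM. The part of such mixed markers in the levels was not tested. At E15.5, the 77 barcodes with mural markers, those of the cells that wrap vessels, had Tpm1 at 1993 CPM (1909 to 2079.5), above the 869 CPM of Myog-positive barcodes, and Tpm2 at 559 CPM (515 to 605). Des was at 41.1 CPM (29.9 to 55.2) there, against 0.963 CPM (0.117 to 3.48) in barcodes with endothelial markers. Myom1 was at 31.8 CPM (22.0 to 44.4) in the mural group and 2.18 CPM (1.62 to 2.86) in the connective group. Some members under 3% in the pooled non-muscle class were higher in 1 group. Tnni2 was at 85.2 CPM (48.7 to 138.4) in the 42 barcodes with immune markers at E12.5, with 16 UMIs in 8 of them. Its non-muscle level there was 2.96 CPM. Tnnt1 was at 35.9 CPM (28.7 to 44.4) in the immune group at E15.5, against 23.4 CPM in non-muscle barcodes.

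Cryab and Unc45b had peaks of their own. Cryab stood at 341 CPM (299 to 388) in the 60 barcodes with Schwann markers at E15.5 and at 100 CPM (81.9 to 121) in the mural group, against 0.845 CPM (0.102 to 3.05) in the immune group. At E12.5 the 18 Schwann-marker barcodes had 4 Cryab UMIs. Unc45b was at 28.9 CPM (22.0 to 37.2) in the 130 barcodes with endothelial markers at E15.5, in 9.38% of them after thinning (32.3% unthinned), and had 0 UMIs in the mural, immune and chondrocyte groups. Pdlim3 was at 16.5 CPM (14.9 to 18.2) in the connective group and 0.423 CPM (0.0107 to 2.35) in the immune group. The intervals of the groups set side by side here do not overlap.

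**Figure D5:**
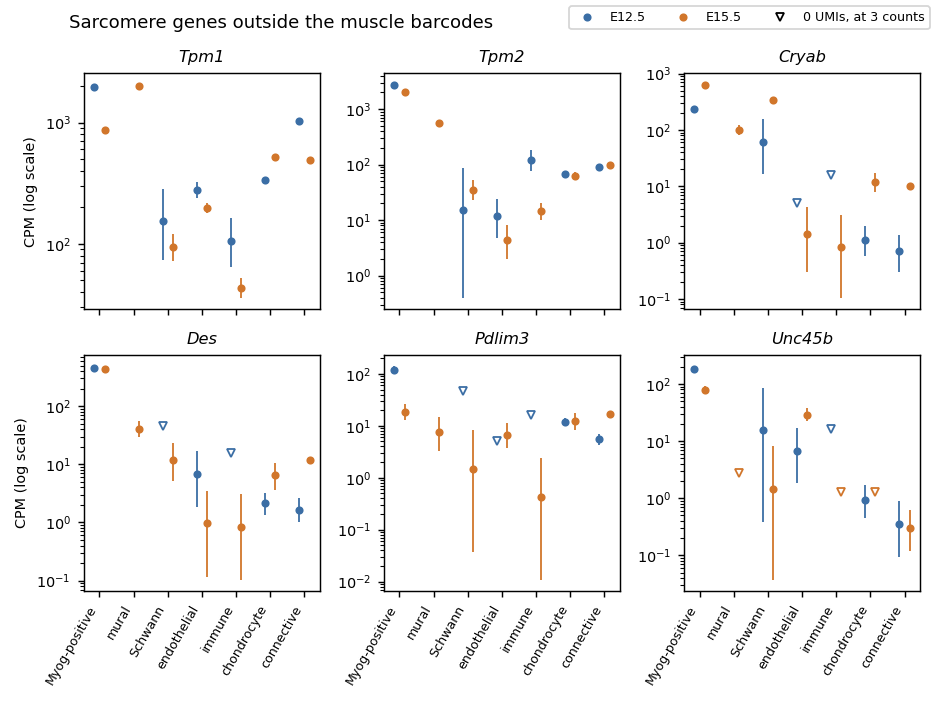
CPM on a log scale of 6 sarcomere genes in Myog-positive barcodes and in barcodes with markers of other cell types at E12.5 (blue) and E15.5 (orange), with 95% counting intervals and open triangles where a group had 0 UMIs. Tpm1 is at 1993 CPM in the mural group at E15.5, Cryab at 341 CPM in the Schwann group and Unc45b at 28.9 CPM in the endothelial group.

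Of 43 further genes of the sarcomere and other muscle structures, 28 had enough UMIs in Myog-positive barcodes. Some of the 28, such as Jsrp1, Srl, Cacna1s and Cavin4, code for proteins of muscle membranes, and the counts take them in. Across ages 4 of the 28 were past the fold upward and 10 downward, beside 5.61% and 21.7% of all genes. Their median log2 ratio was -0.75 against -0.37 for all genes. The higher ones by size were Trim54 at 1.97, Jsrp1 at 1.86 and Cavin4, with 11 and 58 UMIs. The lowest were Lmod2 at -5.73, with 57 and 2 UMIs, Myh7b at -3.96 and Nrap at -3.77 or below, with 22 and 0 UMIs. The most abundant at E12.5 were Synpo2l at 416 CPM, Palld at 331 CPM and Flnc at 259 CPM. At E15.5 they were Pdlim7 at 179 CPM, Flnc at 159 CPM and Jsrp1 at 141 CPM.

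Among 18 smooth muscle and non-muscle relatives, 15 had enough UMIs in Myog-positive barcodes, with 1 past the fold upward and 2 downward, near the 5.61% and 21.7% of all genes. Their median was -0.62, against -0.37 for all genes. Those past it were the non-muscle myosin Myh9 at 1.08, its relative Myh10 at -1.86 and Tagln, a smooth muscle actin-binding protein, at -1.02. Acta2, smooth muscle alpha-actin, stood at 2219 and 1168 CPM in Myog-positive barcodes. Beta-actin (Actb) led this list in non-muscle barcodes with 2975 and 3633 CPM, followed by Actg1 with 1909 and 1738 CPM. After them came Myh10 at E12.5 with 663 CPM, but Myl6 at E15.5 with 849.5 CPM.

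The promoter table held 32 of the 41 members, and Actn3, Tnnt3, Tnni2, Neb, Tcap, Lmod3, Myom2, Cryab and Xirp1 had no entry. In the 250 bases before the start, on both strands, CANNTG was present in 26 of 32 members (81.2%) and 69.3% of all 27025 genes. Its form CAGCTG was in 13 members (40.6%) and 14.7% of genes, and CATTCC in 11 (34.4%) and 14.4%. A MEF2 box was in 5 members (15.6%), Myh8, Myh1, Ttn, Myoz2 and Klhl41, and in 1.99% of genes. A CArG box was in 5 (15.6%), Acta1, Actc1, Myl3, Ldb3 and Myom1, and in 1.62% of genes. TATAAA, read on the gene's strand, was in 4 members and 8.94% of genes. These matches describe letters in a window and are not binding sites. The age ratios of members with the same box did not share a direction: among those with a CArG box Acta1 was at 0.66 and Myom1 at -1.53 in Myog-positive barcodes.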

How the data were processed

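Each deposited matrix gives whole UMI counts by gene and barcode, which the authors made with Cell Ranger 4.0.0 per the file headers. The submitters' processing notes also name Seurat 4.3.0 and build mm10. The annotation release and the rule for calling cells are not given in the sources used here. The deposited counts were used unchanged.

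Barcodes with at least 500 genes and under 10% mitochondrial UMIs were kept. Doublets were scored per library against simulated doublets (2 per barcode, 30 neighbours in 30 principal components of 2000 variable genes), and the highest scores were removed, up to 0.8% per 1000 deposited barcodes, 1270 (10.35%) from the E12.5 library and 190 (4.63%) from the E15.5 library. A muscle barcode had at least 3 UMIs of at least 2 genes of a 12-gene panel (Pax7, Pax3, Myf5, Myod1, Myog, Myf6, Mymk, Mymx, Cdh15, Chrna1, Chrnd, Chrng) and at least 500 CPM of it; 42 of the E12.5 and 73 of the E15.5 muscle barcodes lay under 750 CPM. Non-muscle barcodes had no panel UMI or under 100 CPM. Marker groups needed at least 3 markers and 1000 CPM.

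UMIs were summed over a class. Intervals are exact Poisson for CPM, exact binomial (Clopper-Pearson) for shares and exact conditional for ratios. An empty side was set to 3 counts. Ratios were computed for all genes and called by fold alone, and the code was tested on simulated data. Barcodes were thinned to 2000 UMIs for detection shares. Sex was read from Xist and Y-linked UMIs. All 41 gene identifiers matched GENCODE vM21 (GRCm38), which also gave lengths. The members, lists and isoform sets were chosen with earlier results of these data known. The text names all members, and of the other lists the 3 highest by CPM and the 3 with the largest ratios each way. Python 3.11.15, numpy 2.4.6, scipy 1.17.1, pandas 2.3.3, scikit-learn 1.9.0 and matplotlib 3.10.9 were used.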

Additional observations from a re-analysis of the deposited data

Results flagged for a closer look

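In 3 results the Myog-positive barcodes of the sexes moved in opposite directions between ages, with both counting intervals on 1 side of 0. The difference between the sexes was not tested. The younger library had 55 male and 91 female barcodes of this class, the older 18 and 75. The log2 ratio of Acta1 was -0.66 (-0.97 to -0.36) in male barcodes, from 757 to 479 CPM, and 0.68 (0.50 to 0.85) in female barcodes, from 786 to 1255 CPM. The Actc1 share of alpha-actin UMIs differed by 4.70 percentage points (2.89 to 6.57) in male barcodes, from 88.3% to 93.0%, and by -4.82 points (-6.28 to -3.29) in female barcodes, from 87.4% to 82.6%. The Myh3 share of heavy chain UMIs differed by 7.11 points (2.92 to 10.9) in male and -13.85 points (-17.1 to -10.6) in female barcodes.

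Among the male barcodes at E15.5, the highest barcode for each gene held 127 of 168 Acta1 UMIs (75.6%), 227 of 374 Myh3 UMIs (60.7%) and 904 of 2241 Actc1 UMIs (40.3%).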

How the results depend on the processing

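All 21 members past the fold in Myog-positive barcodes kept their direction under the 12 other settings (20 of 20 with a value in male barcodes), and 16 to 21 stayed past it. Members under the fold did turn: Actc1, Myl4, Mylpf, Myoz2 and Tnni1 by a Myog UMI alone, Acta1, Des, Myl4 and Mylpf in male barcodes, Myh8 and Myl6b in female barcodes, Myoz2 by the larger of Myog and Pax7, and Actc1, Des, Mybph, Myh8 and Mylpf against genes of like length. Des, Mybph and Myh8 also turned with no doublets removed (Des and Mybph with all deposited barcodes) and, with Myl6b, relative to the median gene. No paired analysis was possible because each age has 1 library and the labels give no replicate numbers. The setting relative to genes of like length, and those without Ttn or Tpm1, were added after seeing the data. Depth limits Myl2, Myl3, Myl6b, Myh1 and Xirp1.

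The split of members past the fold was 3 higher and 18 lower. It became 6 and 15 relative to the median gene, 5 and 17 with no doublets removed or with all deposited barcodes, and 1 and 23 by a Myog UMI alone with no panel.

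The log2 ratio of the summed level in Myog-positive barcodes (-0.59) was -0.43 with no doublets removed, -0.45 with all deposited barcodes, -1.11 by 1 UMI alone, -0.64 at a panel minimum of 1000 CPM, -0.78 by the larger of Myog and Pax7, -0.68 with equal weight per barcode, -0.61 with member UMIs left out of the total, -0.22 relative to the median gene, -0.66 in male and -0.65 in female barcodes and -0.24 without Ttn. In Pax7-positive barcodes (-1.04) it was -0.81 relative to the median gene, -1.24 in female barcodes and -0.73 without Ttn. At a panel minimum of 1000 CPM it was -1.98, but that setting left 15 Pax7-positive barcodes at E12.5 and only 2 at E15.5. In non-muscle barcodes (-0.40) it was -0.43 with all deposited barcodes, -0.32 with equal weight, -0.12 relative to the median gene, -0.68 in male and -0.24 in female barcodes and -0.21 without Tpm1.

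The difference of ages in the Actc1 share (-4.20 points) was -3.04 by the larger of Myog and Pax7, -6.20 with equal weight and 4.70 in male barcodes. That of the Myh3 share (-7.78 points) was 7.11 in male and -13.85 in female barcodes, and that of the slow troponin I share (-18.0 points) was -13.4 in male barcodes. The cause was not tested.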
